A study of Homo sapiens with 11 samples.

Results

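Mature miRNAs that are linked to NF-kB or are abundant in blood cells were followed through 11 small RNA libraries of differentiated SH-SY5Y cells. They are 8 mature miRNAs, hsa-miR-146a-5p, hsa-miR-146b-5p, hsa-miR-146b-3p, hsa-miR-155-5p, hsa-miR-223-3p, hsa-miR-142-3p, hsa-miR-142-5p and hsa-miR-150-5p, chosen by name out of the 2576 in each of the deposited count tables, and all 8 were found in both. SH-SY5Y is a human neuroblastoma line, which the labels trace to the bone marrow-derived SK-N-SH line, and it takes on a neuron-like form under all-trans retinoic acid (ATRA). Every library, controls included, came from cells differentiated with ATRA for 7 days. In co-treatment, 10 µM H2O2 was present for those 7 days (3 control and 3 H2O2 libraries). In pre-treatment, 10 µM H2O2 was given for 72 h before ATRA and then removed (2 control and 3 H2O2 libraries). The design text calls the replicates biological triplicates and says that 1 outlying sample was left out, without naming it, and 2 pre-treatment controls were analysed here. All libraries come from 1 cell line.

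NF-kB is a transcription factor that inflammatory signals release into the nucleus. It drives the genes of miR-146a and miR-155. The miR-146 family in turn represses TRAF6 and IRAK1, adaptors upstream of NF-kB, and so closes a negative feedback loop, while miR-155 represses inhibitors such as SOCS1 and SHIP1 and is known for raising inflammatory responses. In contrast, miR-223, miR-142 and miR-150 are best known as miRNAs of blood-forming cells: miR-223 is a myeloid miRNA most abundant in neutrophils, miR-142 is made across white blood cell lineages, and miR-150 is high in mature lymphocytes. In neural tissue these are usually discussed as miRNAs of microglia and infiltrating leukocytes rather than of neurons.

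A miRNA finds its targets mainly through its seed, bases 2 to 8, so the mature sequences are shown to make clear which of these miRNAs can share targets. RefSeq (GRCh38.p14) held a mature sequence for 7 of the 8, written here 5′ to 3′ with the seed in capitals, and hsa-miR-150-5p is named only.
hsa-miR-146a-5p: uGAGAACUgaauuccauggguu
hsa-miR-146b-5p: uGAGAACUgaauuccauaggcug
hsa-miR-146b-3p: gCCCUGUGgacucaguucuggu
hsa-miR-155-5p: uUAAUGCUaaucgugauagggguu
hsa-miR-223-3p: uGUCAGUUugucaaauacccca
hsa-miR-142-3p: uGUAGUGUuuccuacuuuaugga
hsa-miR-142-5p: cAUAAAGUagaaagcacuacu

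The 7 sequences hold 6 distinct seeds. The pair that shares a seed is hsa-miR-146a-5p and hsa-miR-146b-5p, which have the same first 17 bases and differ by G18A and U21C (base of hsa-miR-146a-5p, position from the 5′ end, base of hsa-miR-146b-5p) and in length, 22 against 23 bases. The 2 arms of a hairpin, such as hsa-miR-142-5p and hsa-miR-142-3p, share no seed.

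Exact matches of the mature sequences on the GRCh37 genome, the assembly that hg19 names, placed hsa-miR-146a-5p at chr5:159912379-159912400 (+), in an exon of the lncRNA MIR3142HG. The arms of MIR146B were at chr10:104196277-104196299 (+) for 5p and chr10:104196314-104196335 (+) for 3p. The letters of hsa-miR-146b-3p also matched at chr9:96727242-96727263 (+), where no gene is annotated, so its reads fit either place, and how the authors' counting treated them was not tested. hsa-miR-155-5p was at chr21:26946295-26946318 (+) in an exon of MIR155HG, and hsa-miR-223-3p at chrX:65238779-65238800 (+) in MIR223 and an exon of MIR223HG. hsa-miR-142-3p was at chr17:56408606-56408628 (-) and hsa-miR-142-5p at chr17:56408644-56408664 (-), both in an exon of MIR142HG and opposite TSPOAP1-AS1. The MIR150 hairpin is annotated at chr19:50004042-50004125 (-).

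The libraries held 5343953 to 8927582 counts. Levels are given as counts and as CPM, counts brought to the same total for every library after TMM scaling, which allows for differences in composition. A miRNA at 3 counts lay at 0.342 CPM in the deepest library and 0.508 CPM in the shallowest, and such limits cover counting error only. Neuronal miRNAs fixed as markers of the labelled cell type (8 miRNAs, among them hsa-miR-128-3p and hsa-miR-7-5p) summed to 14719 to 38572 CPM per library. Most of each sum was hsa-miR-137 (77318 of 109659 counts in pre-treatment control 1, 209364 of 243115 in co-treatment control 1). hsa-miR-9-5p had 14 to 46 counts per library, and hsa-miR-124-3p, a defining miRNA of mature neurons, had 0 to 7. One library, pre-treatment control 1, stood apart from its partner and is described before any pre-treatment result.

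Among the 8 miRNAs, only hsa-miR-146b-5p was abundant in these cells. It had 4325 to 7099 counts in the co-treatment libraries and 3704 to 9515 in those of pre-treatment. By mean CPM in controls it ranked 97 of the 790 miRNAs tested in co-treatment and 106 of the 868 tested in pre-treatment. Its seed partner hsa-miR-146a-5p had 46 to 183 counts, so hsa-miR-146b-5p exceeded it by 47.9-fold to 101-fold within a library. In the co-treatment controls, hsa-miR-142-3p ranked 386, hsa-miR-146a-5p 402, hsa-miR-142-5p 485, hsa-miR-150-5p 563, hsa-miR-146b-3p 664 and hsa-miR-223-3p 762.5 of 790. hsa-miR-155-5p did not pass the filter on low counts in either experiment. Of the opposite arms, hsa-miR-146a-3p, hsa-miR-150-3p and hsa-miR-155-3p had 0 counts in all 11 libraries, which allows up to 3 counts in each, and hsa-miR-223-5p had 1 count in co-treatment H2O2 library 3, 2 in pre-treatment control 1 and 0 in the rest.

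**Figure D1:**
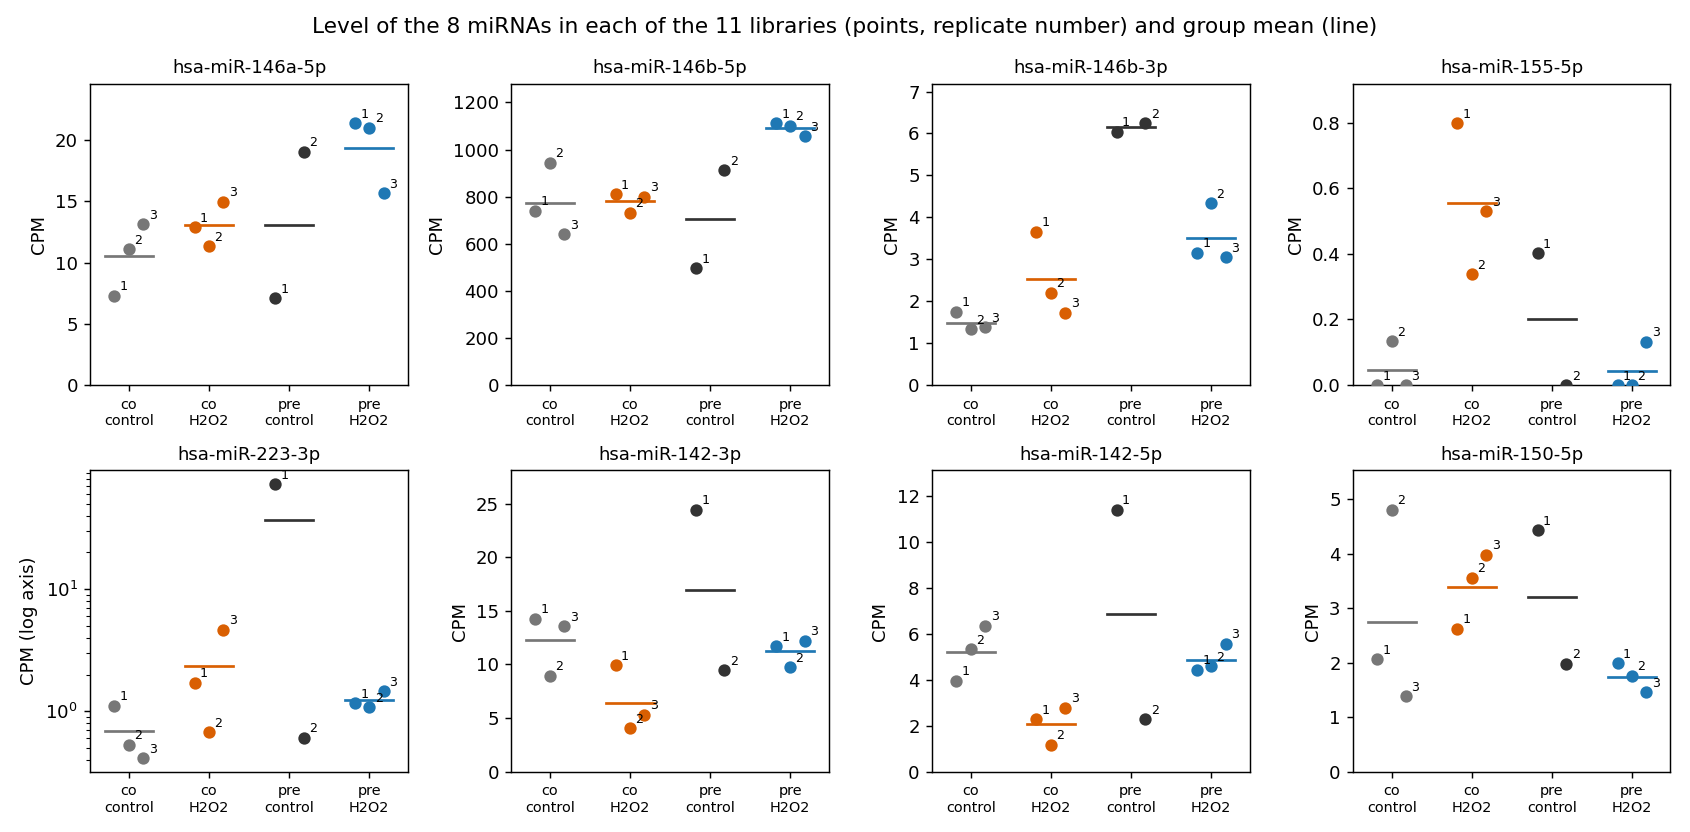
Level of each of the 8 miRNAs in the 11 libraries, in CPM within each experiment (linear axes from 0, log axis for hsa-miR-223-3p); points are libraries with their replicate number and lines are group means (n = 3, 3, 2 and 3). hsa-miR-142-5p is lower in every co-treatment H2O2 library than in every control, and pre-treatment control 1 holds 72.5 CPM of hsa-miR-223-3p against 0.415 to 4.64 CPM elsewhere.

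The first comparison asked what H2O2 during differentiation did to these miRNAs. hsa-miR-142-5p was the 1 of 7 tested that changed, and it fell. hsa-miR-142-3p, from the same hairpin, was lower and hsa-miR-223-3p was higher on average, but neither passed the threshold, and both miR-146 5p miRNAs and hsa-miR-150-5p were within the spread of the libraries. Calls were made with edgeR's exact test at a false discovery rate (FDR, Benjamini-Hochberg over all miRNAs tested) under 0.05 and an absolute log2FC over 0.6. By that rule 26.2% of the 790 miRNAs tested were called (84 higher, 123 lower), so 1 of 7 is no more than the background. The median log2FC of the 7 was 0.28, and that of all tested was -0.04. RNA came from whole cultures, in which fewer cells of a type and less miRNA per cell cannot be told apart.

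hsa-miR-142-5p had 25, 40 and 46 counts in control libraries and 20, 7 and 21 with H2O2. The levels were 3.97, 5.34 and 6.36 CPM against 2.28, 1.19 and 2.79 CPM. The groups did not overlap, which was the case for 41.6% of all miRNAs tested in this experiment and for no other of the 7. The mean fell from 5.22 ± 1.20 CPM (SD, n = 3) to 2.08 ± 0.82 CPM (SD, n = 3), a 2.46-fold lower level (log2FC -1.30, SE 0.42, exact test FDR 0.0145). The call rests on few counts. It was lost without control 3 (FDR 0.117), without H2O2 library 1 (FDR 0.0727) and without H2O2 library 2 (FDR 0.115), with the log2FC between -1.52 and -0.95 over all 6 libraries left out in turn.

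hsa-miR-142-3p had 90, 67 and 98 counts in control libraries and 87, 24 and 40 with H2O2, or 14.3, 8.95 and 13.5 CPM against 9.93, 4.06 and 5.31 CPM. H2O2 library 1 lay above control 2, so the groups overlapped. The log2FC was -0.91 (SE 0.36, FDR 0.0597). It passed the threshold without control 2 (FDR 0.0180) and without H2O2 library 1 (FDR 0.0263).

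Both arms of the miR-142 hairpin were thus lower with H2O2 in the averages. Their ratio within a library, which needs no scaling factor, gave no test past the threshold: the log2 ratio of 5p to 3p was -1.22 ± 0.56 (SD, n = 3) in controls and -1.57 ± 0.60 (SD, n = 3) with H2O2 (exact permutation test, 2-sided, p = 0.5, adjusted p = 0.72 over the 6 ratio tests). With 3 against 3 libraries that test cannot give a p under 0.1.

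hsa-miR-223-3p was near the detection limit in most co-treatment libraries. It had 7, 4 and 3 counts in control libraries and 15, 4 and 35 with H2O2 (1.11, 0.534 and 0.415 CPM against 1.71, 0.677 and 4.64 CPM). H2O2 library 3 held most of the difference, and H2O2 library 2 lay among the controls. The log2FC was 1.78 (SE 0.70, FDR 0.0514), just outside the threshold. It was inside it without H2O2 library 2 (log2FC 2.30, FDR 0.00570).

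The miR-146 family was at similar levels with and without H2O2. hsa-miR-146a-5p had 46, 83 and 95 counts in control libraries and 113, 67 and 113 with H2O2 (10.5 ± 2.96 and 13.1 ± 1.83 CPM, SD, n = 3 each), a log2FC of 0.31 (SE 0.31, FDR 0.512). hsa-miR-146b-5p had 4664, 7068 and 4637 counts in control libraries and 7099, 4325 and 6028 with H2O2. Its means of 775 ± 155 and 781 ± 42.2 CPM (SD, n = 3 each) differed by a log2FC of 0.01 (SE 0.25, FDR 0.989), and 2 of the 3 H2O2 libraries were above 2 of the 3 controls. hsa-miR-146b-3p, the minor arm, had 11, 10 and 10 counts in control libraries and 32, 13 and 13 with H2O2. Its log2FC was 0.78 (SE 0.49, FDR 0.239), and most of it came from H2O2 library 1.

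hsa-miR-150-5p had 13, 36 and 10 counts in control libraries and 23, 21 and 30 with H2O2, and all H2O2 libraries lay inside the range of the controls on the CPM scale (1.38 to 4.81 CPM). The log2FC was 0.28 (SE 0.47, FDR 0.711).

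hsa-miR-155-5p had 0, 1 and 0 counts in control libraries and 7, 2 and 4 with H2O2. Pooled over the libraries, this is 13 counts against 1, a ratio of 13.1 per library total with an exact 95% interval of 1.97 to 558 that covers counting error only. The highest level was 0.799 CPM. It was below the filter, so it has no test in the fit across miRNAs, and its 2 counts in H2O2 library 2 are within the 3 counts taken as the limit of detection.

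edgeR's quasi-likelihood test, run beside the exact test, called hsa-miR-142-5p too (FDR 0.0311), with 22.9% of all miRNAs called. Its unadjusted p was under 0.05 for 3 of the 7, which were hsa-miR-142-5p, hsa-miR-142-3p and hsa-miR-223-3p.

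The controls of pre-treatment have to be described before the comparison, because they disagreed. hsa-miR-223-3p had 540 counts in control 1 and 4 in control 2, a ratio of 135. On the log2 scale of CPM this was the largest difference between the 2 controls among the 868 miRNAs tested (6.04), whose median absolute difference was 0.84. hsa-miR-142-5p had 85 and 15 counts, hsa-miR-142-3p 182 and 62, and hsa-miR-150-5p 33 and 13, each higher in control 1. The miR-146 5p miRNAs went the other way, with 53 and 125 counts of hsa-miR-146a-5p and 3704 and 5983 of hsa-miR-146b-5p. hsa-miR-146b-3p was alike in both controls, at 45 and 41 counts.

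On 1 CPM scale for all 11 libraries, pre-treatment control 1 had the highest level of hsa-miR-223-3p (70.3 CPM, the other 10 between 0.436 and 4.54), hsa-miR-142-3p (23.7 CPM, the others 4.06 to 15.0) and hsa-miR-142-5p (11.1 CPM, the others 1.19 to 6.69). Against the median of the other 10 libraries these levels were 61.3-fold, 2.42-fold and 2.56-fold. hsa-miR-150-5p was second highest there, at 4.30 CPM. The same library had the lowest hsa-miR-146a-5p of the 11 (6.90 CPM, the others 7.68 to 21.8) and the lowest hsa-miR-146b-5p (482 CPM, the others 674 to 1152). Control 2 was inside the range of the 9 remaining libraries for hsa-miR-223-3p and both arms of miR-142.

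**Figure D2:**
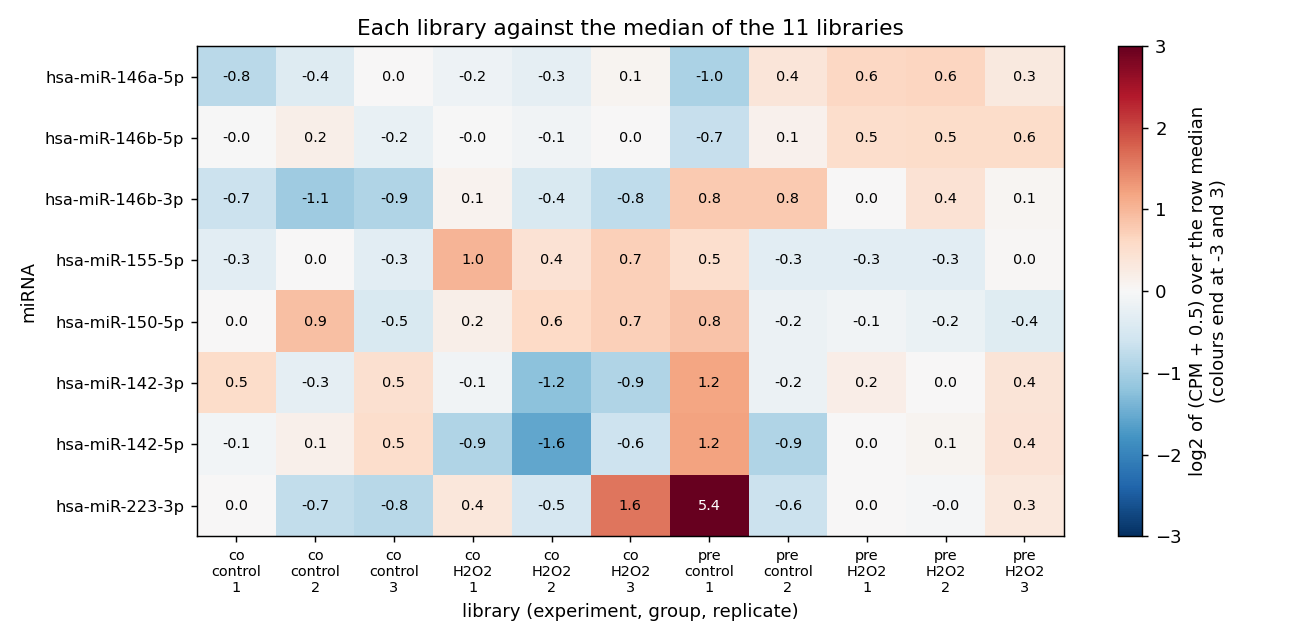
Level of the 8 miRNAs (rows) in the 11 libraries (columns) as the log2 of CPM plus 0.5 over the row's median, on 1 scale for both experiments; red is above and blue below the median. Pre-treatment control 1 is the column with high hsa-miR-223-3p (5.4) and both arms of miR-142 (1.2 each) and low hsa-miR-146a-5p (-1.0) and hsa-miR-146b-5p (-0.7).

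Lists of miRNAs known from other tissues were measured beside these. The white blood cell list, which is hsa-miR-223-3p, both arms of miR-142, hsa-miR-150-5p and hsa-miR-155-5p themselves, summed to 113 CPM in pre-treatment control 1 and to 9.82 to 21.7 CPM in the other 10 libraries. The epithelial list summed to 199 CPM there (1485 counts) and 71.4 to 102 CPM elsewhere. Of those counts 1007 were hsa-miR-205-5p, of stratified epithelia, which had 10 to 32 elsewhere. In pre-treatment control 1 the other epithelial miRNAs had counts inside the range of the other 10 libraries. Examples are hsa-miR-200a-3p (22 against 18 to 95) and hsa-miR-203a (184 against 183 to 375). The neuronal list was lowest in that library (14719 CPM, the others 18906 to 38572), and so was the endothelial list (4471 CPM, the others 7646 to 18932). Of its 109659 neuronal counts, 77318 were hsa-miR-137 (82617 to 247992 elsewhere) and 8016 hsa-miR-128-3p (8556 to 15575 elsewhere), both lowest there. The rest of the neuronal list had counts inside the range of the other libraries. Examples are hsa-miR-375 (19808 against 12427 to 37792) and hsa-miR-138-5p (2436 against 1322 to 6723). Red blood cell miRNAs summed to 2.42 and 3.96 CPM in the pre-treatment controls and 10.6 to 14.4 CPM with H2O2. Liver miRNAs summed to 463 and 718 CPM against 1499 to 1721 CPM, so both sums moved with the pre-treatment groups. In the red blood cell list hsa-miR-451a (log2FC 2.79) and hsa-miR-144-5p (2.71) rose in pre-treatment, while hsa-miR-486-5p did not (-0.48, exact test FDR 0.738). In co-treatment the sum of the neuronal list was 36004 to 38572 CPM in controls and 18906 to 23295 CPM with H2O2. Most of that sum was hsa-miR-137 (log2FC -1.10, FDR 5.89e-04, exact test), and 3 of the 7 neuronal miRNAs tested fell. The others, hsa-miR-7-5p (-0.66, FDR 0.0799), hsa-miR-128-3p (-0.04), hsa-miR-375 (0.06) and hsa-miR-138-5p (0.32), did not pass the test. The endothelial list was also lower with H2O2, at 7646 to 10923 CPM against 11581 to 18932 CPM (hsa-miR-126-5p fell, log2FC -1.02, FDR 0.00901). Of the red blood cell list hsa-miR-486-5p rose in co-treatment (log2FC 2.53, FDR 0.00173), from 1, 2 and 4 counts to 17, 8 and 20. There hsa-miR-451a (0.59, FDR 0.406) and hsa-miR-144-5p (-0.50, FDR 0.512) were not called. Muscle miRNAs stayed at 0.537 to 3.66 CPM. The part of these lists in the results of either experiment was not tested.

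The second comparison asked what H2O2 before differentiation did to the same miRNAs. With both controls, hsa-miR-223-3p was the 1 of 7 that was called, and it fell, but the fall rested on control 1. hsa-miR-146b-5p was higher in every H2O2 library than in either control, and hsa-miR-146b-3p was lower in every one, without passing the threshold. The exact test called 15.3% of the 868 miRNAs tested (47 higher, 86 lower), and 1 of 7 is close to that. The median log2FC of the 7 was -0.60, and that of all tested was -0.19.

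The counts of hsa-miR-223-3p were 540 and 4 without H2O2 and 10, 8 and 11 with it. In CPM these were 72.5 and 0.610 against 1.17, 1.08 and 1.46. The H2O2 libraries lay between the controls, above control 2 and far below control 1. With both controls the log2FC was -4.87 (SE 1.42, exact test FDR 0.0107), a 29.2-fold lower level. Against control 1 alone it was -5.88 (FDR 1.73e-78), and against control 2 alone it turned to 1.04 (FDR 0.520). The quasi-likelihood test gave an FDR of 0.0819 and called none of the 7, with 1 of the 7 at an unadjusted p under 0.05 and 1.96% of all miRNAs called, whereas DESeq2 called hsa-miR-223-3p (FDR 0.0274).

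The other blood cell miRNAs changed direction, or came close to no difference, between the controls. hsa-miR-142-3p was at 182 and 62 counts without H2O2 and at 100, 72 and 92 with H2O2 (24.4 and 9.45 CPM against 11.7, 9.76 and 12.2 CPM). Its log2FC was -0.60 with both controls (SE 0.45, FDR 0.477), -1.15 against control 1 (FDR 1.01e-04) and 0.29 against control 2 (FDR 0.527). hsa-miR-142-5p had 85 and 15 counts against 38, 34 and 42. Its log2FC was -0.49 with both controls (SE 0.62, FDR 0.675), -1.25 against control 1 (FDR 5.83e-04) and 1.13 against control 2 (FDR 0.0529). hsa-miR-150-5p had 33 and 13 counts against 17, 13 and 11, a log2FC of -0.88 (SE 0.51, FDR 0.333), which was -1.36 against control 1 (FDR 0.0111) and -0.14 against control 2 (FDR 0.965). For all of them the H2O2 libraries were close to each other, with SDs of 1.29, 0.61 and 0.27 CPM (n = 3), and the controls were not, with SDs of 10.6, 6.45 and 1.73 CPM (n = 2).

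The counts of hsa-miR-146b-5p were 3704 and 5983 without H2O2 and 9515, 8121 and 7969 with it, or 497 and 912 CPM against 1113, 1101 and 1057 CPM. The groups did not overlap, as for 46% of the miRNAs tested in this experiment. The log2FC was 0.63 (SE 0.32, FDR 0.300). It was 1.11 against control 1 (FDR 7.92e-06) and 0.30 against control 2 (FDR 0.267), in the same direction against each.

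For hsa-miR-146a-5p the counts were 53 and 125 without H2O2 and 183, 155 and 118 with it (7.11 and 19.1 CPM against 21.4, 21.0 and 15.7 CPM). H2O2 library 3 lay below control 2. The log2FC was 0.57 with both controls (SE 0.47, FDR 0.529), 1.42 against control 1 (FDR 1.23e-04) and 0.07 against control 2 (FDR 0.923). The ratio of hsa-miR-146b-5p to hsa-miR-146a-5p in a library differed between H2O2 and control by -0.02 on the log2 scale in pre-treatment (exact permutation test, 2-sided, p = 0.9, adjusted p = 0.9) and by -0.32 in co-treatment (p = 0.4, adjusted p = 0.72).

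The minor arm hsa-miR-146b-3p was at 45 and 41 counts without H2O2 and 27, 32 and 23 with it (6.04 and 6.25 CPM against 3.16, 4.34 and 3.05 CPM). It was the member whose pre-treatment result did not depend on the choice of control: the log2FC was -0.81 with both (SE 0.37, FDR 0.233), -0.81 against control 1 (FDR 0.0838) and -0.79 against control 2 (FDR 0.121). None of the 3 passed the threshold. Its partner arm was higher in these libraries, so the log2 ratio of 3p to 5p moved from -6.76 ± 0.58 (SD, n = 2) in controls to -8.27 ± 0.26 (SD, n = 3) with H2O2. The groups of ratios did not overlap, and the difference of -1.51 had p = 0.1 by the exact permutation test (2-sided, adjusted p = 0.6 over 6 ratio tests), the smallest p that 3 against 2 libraries allow. In co-treatment the same ratio was -8.95 ± 0.39 in controls and -8.30 ± 0.52 with H2O2 (SD, n = 3 each; exact permutation test p = 0.3, adjusted p = 0.72).

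**Figure D3:**
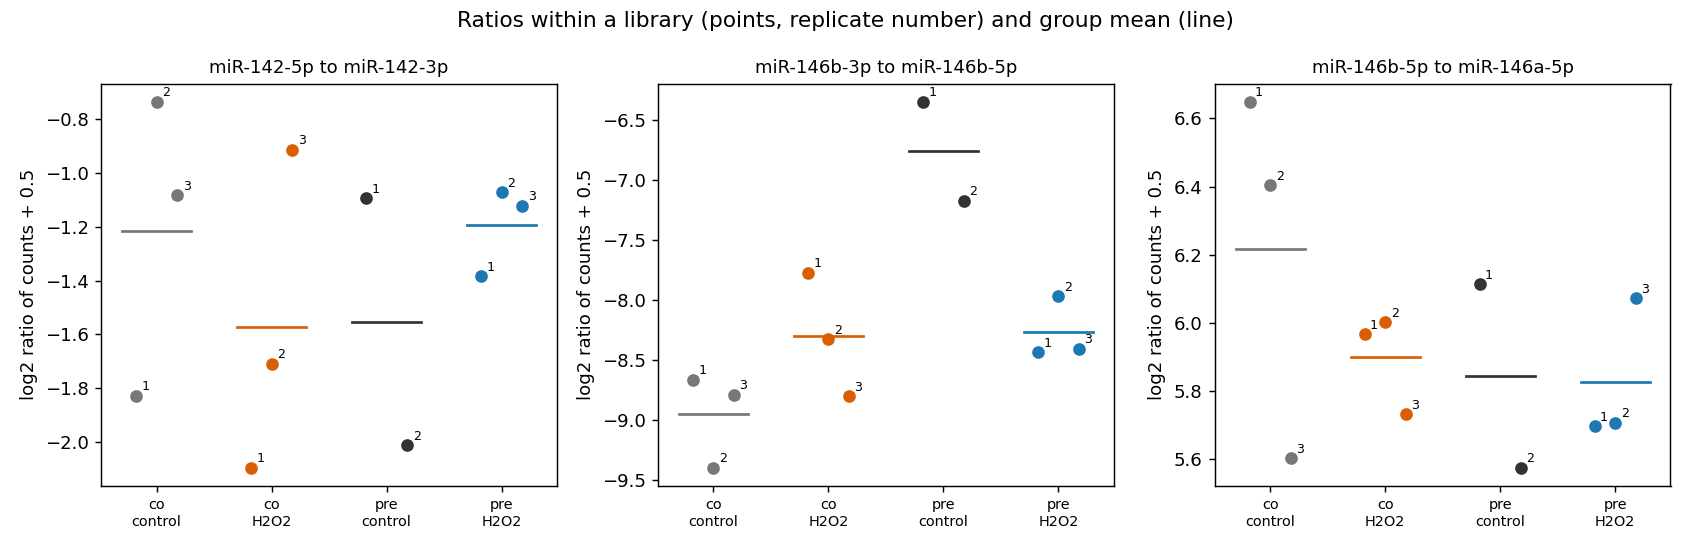
Log2 ratio of counts plus 0.5 within each library for the arms of miR-142 (5p to 3p), the arms of miR-146b (3p to 5p) and the seed partners miR-146b-5p and miR-146a-5p; points are libraries with their replicate number and lines are group means. The ratio of miR-146b-3p to miR-146b-5p is highest in both pre-treatment controls, and the groups overlap in the other ratios.

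In pre-treatment, hsa-miR-155-5p was counted 3 and 0 times without H2O2 and 0, 0 and 1 times with it, at or under the limit of detection in all 5 libraries, so no fold is given.

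Counted over the 7 tested miRNAs, 6 were called against control 1 alone, where 54.8% of all miRNAs tested were called, and 0 against control 2 alone, where 34.8% were called. The exception against control 1 was hsa-miR-146b-3p. Against control 2 alone, hsa-miR-142-5p was the 1 of the 7 with an unadjusted p under 0.05 (p = 0.0196, edgeR's exact test). With a single control the fit takes the spread from the H2O2 libraries, which were close to each other, and assumes that the control varies like them.

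**Figure D4:**
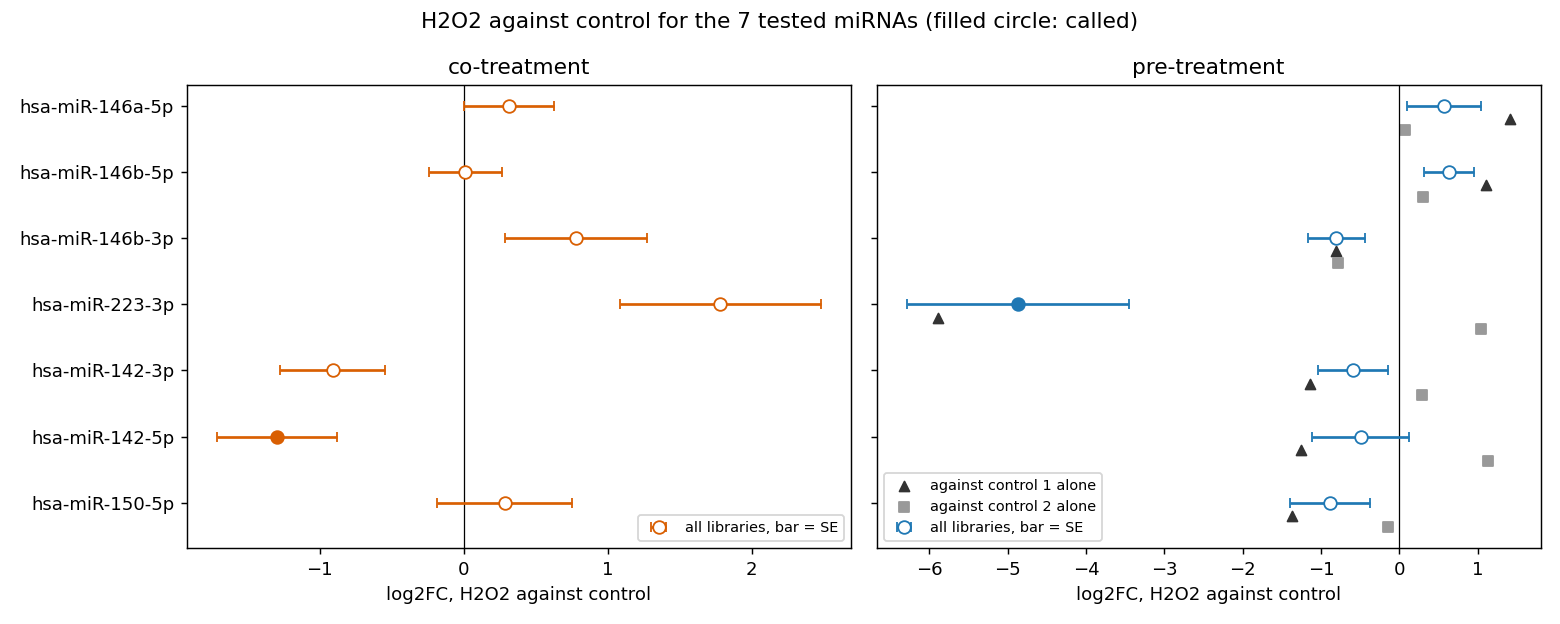
Log2FC of H2O2 against control for the 7 tested miRNAs in co-treatment (left) and pre-treatment (right); circles are the fits of all libraries with their SE (filled where called), and triangles and squares are pre-treatment H2O2 against control 1 and control 2 alone; the 2 axes differ in range. hsa-miR-223-3p goes from -5.88 to 1.04 with the choice of control, and hsa-miR-146b-3p stays at -0.81 and -0.79.

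The response of each miRNA was then compared between the experiments, as an interaction in 1 quasi-likelihood fit of all 11 libraries. Of all 764 miRNAs in that fit, 32.1% differed at an FDR under 0.05, and so did 2 of these 7. For hsa-miR-146b-3p the log2FC of pre-treatment minus that of co-treatment was -1.85 (SE 0.56, FDR 0.0236), with a log2FC of 0.91 in co-treatment and -0.95 in pre-treatment in this fit. For hsa-miR-223-3p it was -7.11 (SE 1.72, FDR 0.00859), and without pre-treatment control 1 it was -0.92 (FDR 0.658). The difference of hsa-miR-146b-3p missed the threshold without any 1 of 4 libraries: pre-treatment control 1 (-1.72, FDR 0.0547), co-treatment H2O2 library 1 (-1.50, FDR 0.0760) and pre-treatment H2O2 libraries 1 and 3 (-1.76 each, FDR 0.0586 each). Without pre-treatment control 1 that of hsa-miR-142-5p rose from 0.42 (FDR 0.696) to 2.27 (FDR 0.0186). Each experiment has its own controls and its own table, so the regimen and any batch between them cannot be told apart.

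The levels on the common scale show where the difference of hsa-miR-146b-3p lay. Its mean was 5.87 ± 0.01 CPM in pre-treatment controls (SD, n = 2), 3.67 ± 0.72 CPM in pre-treatment H2O2, 2.45 ± 0.92 CPM in co-treatment H2O2 and 1.51 ± 0.30 CPM in co-treatment controls (SD, n = 3 each). The pre-treatment controls stood above all other libraries, while each of the other neighbours in this order overlapped. The controls of the 2 experiments, both without H2O2, were thus at opposite ends.

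hsa-miR-146b-5p had another order. It was 1138 ± 16.0 CPM in pre-treatment H2O2, above the other 3 groups, which overlapped at 779 ± 104 CPM in co-treatment controls, 762 ± 26.2 CPM in co-treatment H2O2 and 670 ± 266 CPM in pre-treatment controls. hsa-miR-142-5p was at 2.03 ± 0.78 CPM in co-treatment H2O2, below 5.29 ± 1.28 CPM in co-treatment controls and 5.11 ± 0.85 CPM in pre-treatment H2O2, and pre-treatment control 2 (2.15 CPM) lay at the level of the co-treatment H2O2 libraries.

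For each tested miRNA, the miRNAs of at least 10 CPM with the most similar profile over the 11 libraries were sought by the root mean square difference of log2 CPM after centring each row. These values are descriptions, and the points share library depth and composition. The nearest to hsa-miR-142-5p among 403 was its own partner arm hsa-miR-142-3p (0.42), then hsa-miR-3613-5p (0.67), and the median over the candidates was 0.96. hsa-miR-142-3p itself was nearest to hsa-miR-30e-5p (0.52) and hsa-miR-488-3p (0.57). hsa-miR-223-3p was nearest to hsa-miR-205-5p (1.11) and hsa-miR-92b-5p (1.13), which is a loose likeness beside its own range of 6.64. Pre-treatment control 1 alone held high counts of hsa-miR-223-3p (540, the others 3 to 35) and of hsa-miR-205-5p (1007, the others 10 to 32).

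hsa-miR-146b-5p was nearest to hsa-miR-185-5p (0.20) and hsa-miR-629-5p (0.21), and hsa-miR-146a-5p to hsa-miR-532-5p (0.29) and hsa-miR-151a-3p (0.30). hsa-miR-146b-3p was nearest to hsa-miR-219a-1-3p (0.36) and hsa-miR-500a-3p (0.40), and not to its partner arm. hsa-miR-150-5p was nearest to hsa-miR-92a-3p and hsa-miR-149-5p (0.35 each).

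Other miRNAs linked to NF-kB were measured beside the 8. Of 14 names on that list, 12 were in the tables and all 12 were tested. In co-treatment 0 rose and 4 fell by the exact test: hsa-miR-199a-5p (log2FC -1.86, SE 0.46, FDR 0.00136), hsa-miR-301a-3p (-1.33, SE 0.28, FDR 3.95e-04), hsa-miR-9-5p (-1.06, SE 0.40, FDR 0.0493) and hsa-miR-21-5p (-0.67, SE 0.21, FDR 0.0360). These 4 of 12 stand beside 26.2% of all miRNAs called in co-treatment, most of them lower, and the median over the 12 was -0.47. By the quasi-likelihood test hsa-miR-9-5p was not called (FDR 0.0651), and the other 3 were (FDR 0.00501 to 0.0247). The calls of hsa-miR-199a-5p and hsa-miR-9-5p rest on few counts. hsa-miR-199a-5p had 42, 35 and 43 counts in control libraries and 13, 16 and 5 with H2O2. For hsa-miR-9-5p they were 31, 24 and 46 against 20, 14 and 17. hsa-miR-199a-5p is known to repress IKKβ, a kinase that activates NF-kB, and hsa-miR-21-5p is induced by inflammatory signals and is abundant in many cell types.

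In pre-treatment 3 of the 12 rose and 1 fell. The rises were hsa-miR-21-5p (log2FC 1.53, SE 0.26, FDR 8.86e-04), its partner arm hsa-miR-21-3p (1.37, SE 0.31, FDR 0.0168) and hsa-miR-301a-3p (1.22, SE 0.27, FDR 0.0135). The fall was hsa-miR-210-3p (-1.75, SE 0.41, FDR 0.00492), best known as a miRNA of hypoxia. The share of all miRNAs called was 15.3%, and the median over the 12 was 0.30. By the quasi-likelihood test, which called 1.96% of all miRNAs, hsa-miR-21-5p passed (FDR 0.0373) and hsa-miR-21-3p (FDR 0.0560), hsa-miR-301a-3p (FDR 0.0560) and hsa-miR-210-3p (FDR 0.0590) did not. Against control 1 alone 7 of the 12 rose and 1 fell (54.8% of all miRNAs called), and against control 2 alone 5 rose and 2 fell (34.8% of all called). The 4 miRNAs called with both controls changed in the same direction against each control alone. So did hsa-miR-181b-5p and hsa-miR-9-3p, which were higher against each. With both controls those were not called by the exact test (log2FC 1.21, FDR 0.0504, and log2FC 1.64, FDR 0.0638). hsa-miR-21-5p was at 39504 and 46426 counts without H2O2 and at 154680, 131165 and 135144 with H2O2, with no overlap, as for 46% of all miRNAs tested.

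Of 7 other miRNAs that are rich in leukocytes but are made by many cell types, 6 were tested in co-treatment and 0 were called, where 26.2% of all miRNAs were. Their lowest unadjusted p was 0.0834 by edgeR's exact test, and their quasi-likelihood FDR was 0.127 to 0.966. In pre-treatment 1 of 7 was called, about the 15.3% of all miRNAs, and it was hsa-miR-342-5p, which fell (log2FC -1.87, SE 0.27, FDR 5.94e-05), and it was called lower against each control alone. It was at 1544 and 1613 counts without H2O2 and at 485, 487 and 475 with H2O2. In this miRNA the controls were alike, in contrast to hsa-miR-223-3p and miR-142. Its partner arm hsa-miR-342-3p, on the same list, had 162101 counts in control 1 and 40463 in control 2. The H2O2 libraries lay between them (70912, 59613 and 64158 counts), and it was not called (log2FC -0.75, SE 0.48, FDR 0.336).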

How the data were processed

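Small RNA was sequenced by the authors (QIAseq miRNA libraries). The authors trimmed reads with Cutadapt 2.10 at a Phred score of 28, aligned them to hg19 with Bowtie2 2.4.1 and counted mature miRNAs with htseq-count 0.7.2, and they deposited the counts without normalization. Whether molecular identifiers were used is not given in the sources used here. The deposited tables of the authors' own fold changes were not used.

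From the counts, edgeR 4.0.16 (R 4.3.3) was run with its exact test per experiment, after the methods of the study, and with TMM scaling, which those methods do not name. The low-count filter was the CPM that 5 counts have in an experiment's smallest library, 0.936 (co-treatment) or 0.721 (pre-treatment), exceeded by 3 or 2 libraries. SEs came from the quasi-likelihood fit. Ratios were compared by exact permutation tests over libraries. The alternatives were DESeq2 1.42.0, other scaling, filters and thresholds, a replicate block, a joint fit and each library left out. Scripts were tested on simulated data. The 8 miRNAs and all lists were chosen with earlier results of these data known. All 8 are named, the nearest 2 profiles of each tested miRNA, and list members that were called or that a result turned on. No libraries were duplicates (chi-square per degree of freedom 28.7 to 2210 between replicates).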

Additional observations from a re-analysis of the deposited data

Results flagged for a closer look

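The response to H2O2 differed between the experiments for hsa-miR-223-3p (log2FC of pre-treatment minus co-treatment -7.11, quasi-likelihood FDR 0.00859) and hsa-miR-146b-3p (-1.85, FDR 0.0236). Without pre-treatment control 1 these values were -0.92 (FDR 0.658) and -1.72 (FDR 0.0547). For hsa-miR-146b-3p the FDR was also above 0.05 without co-treatment H2O2 library 1 (0.0760), without pre-treatment H2O2 library 1 or 3 (0.0586 each) and with no filter on low counts (0.141), with the sign kept in each. The regimens and any batch between the experiments cannot be told apart.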

How the results depend on the processing

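In co-treatment, 1 of the tested miRNAs was called, and 2 with DESeq2 size factors (hsa-miR-223-3p added, FDR 0.0477), 0 with no filter on low counts and 0 in 1 quasi-likelihood fit of both experiments, with 0 to 2 over libraries left out. In pre-treatment the 1 call became 0 with the quasi-likelihood test, 0 with the filter in all libraries, which drops hsa-miR-223-3p, and 0 to 6 over libraries left out. Calls over all miRNAs went from 207 in co-treatment to 90 in the joint fit and 98 to 279 over libraries left out, and from 133 in pre-treatment to 17 (quasi-likelihood), 61 (no filter) and 9 to 449. The 2 differences between experiments became 1 with no filter and 1 to 4 over libraries left out. Where no value is named beside a change, the cause was not tested.

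Same-numbered libraries showed no clear likeness (correlation of same-numbered deviations -0.16 to 0.04 in co-treatment, -0.05 and 0.22 in pre-treatment). Deviations within groups of 3 or 2 libraries are tied to each other, so these values cannot show whether replicate numbers pair the libraries. With the replicate block, 0 of the tested miRNAs were called in either experiment, 111 and 15 of all miRNAs, and 0 differed between the experiments (hsa-miR-142-5p in co-treatment log2FC -1.33, FDR 0.0705).

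Signs turned, with no call on the turned side, for hsa-miR-146b-5p in co-treatment (-0.012 to 0.18 over libraries left out), in pre-treatment for hsa-miR-223-3p (-5.88 to 1.04), hsa-miR-142-3p (-1.15 to 0.29) and hsa-miR-142-5p (-1.25 to 1.13), and for differences between experiments of hsa-miR-146a-5p (-0.41 to 0.95), hsa-miR-142-5p (-0.12 to 2.27) and hsa-miR-142-3p (-0.40 to 1.05, and 0.25 by library size, 0.20 with DESeq2 size factors, 0.40 with no filter, 0.19 with the replicate block). Most of the 8 had under 200 counts per library, where counting error alone is large.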
